A study of Mus musculus with 16 samples.

Results

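The insulin-like growth factor (IGF) axis was followed in mandibular molar germs through 8 genes: the ligand *Igf1*, the receptor *Igf1r* and the binding proteins *Igfbp2*, *Igfbp3*, *Igfbp4*, *Igfbp5*, *Igfbp6* and *Igfbp7*. They were chosen by gene symbol, and each had exactly 1 probe set of its own, out of 19938 genes with such a probe set. All 8 reached the signal minimum of 5 on the log2 scale in at least 1 sample, as did 17215 genes in all. RNA of molar germs at E14.5 was hybridised to Affymetrix Mouse Gene arrays, in 8 pools from *Rsk2-/Y* embryos and 8 pools from wild-type (WT) embryos, all of the C57Bl6 background. *Rsk2-/Y* embryos are males whose X-linked *Rsk2* gene (*Rps6ka3*) lost exon 2 in the germline, a mouse model of Coffin-Lowry syndrome. The controls were WT littermate males. Each pool held 4 germs from more than 1 embryo, and nothing says which pools came from separate litters, so that p-values measure the spread between these pools. The sample names also fall into an AZN and an ABH series, with 4 pools of each genotype in each, and what separates the series is not stated.

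IGF1 is a secreted growth factor, and its receptor IGF1R is a tyrosine kinase that passes the signal through IRS proteins to PI3K and AKT, and through SHC, GRB2 and SOS to RAS and ERK. RSK2, the kinase lost in the mutants, lies directly downstream of ERK. IGF binding proteins hold IGFs outside the cell, prolong their life or keep them from the receptor, and proteases such as PAPP-A set them free. IGFBP7 binds IGFs only weakly and is best known from blood vessels and connective tissue.

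All dissections held both tissues of the tooth germ: 16 of 16 measured dental epithelium markers and 14 of 14 measured dental mesenchyme markers were above the signal minimum in all pools. Marker means differed between the groups in overlapping ranges and were not tested, and no gene of any marker list passed the test between genotypes. The skeletal muscle mean (19 markers) ran between 7.41 and 9.79 in *Rsk2-/Y* pools, against 7.47 to 8.89 in WT pools, and between 7.97 and 9.79 in AZN pools, against 7.41 to 9.41 in ABH pools. The dental epithelium mean was 9.70 in *Rsk2-/Y* and 9.96 in WT pools. In pooled tissue, fewer cells of a type and less RNA per cell cannot be told apart. *Rps6ka3* itself had a mean signal of 10.09 ± 0.28 in *Rsk2-/Y* and 9.99 ± 0.23 in WT pools (SD, n = 8 each). Probes outside the deleted exon can still report the mutant transcript, so this level does not check the labels.

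The ligand *Igf1* overlapped between the genotypes over most of its range. Its log2 signal was 9.98 at the lowest, 10.31 at the median and 10.77 at the highest in *Rsk2-/Y* pools, against 9.65, 10.35 and 11.001 in WT pools. The receptor *Igf1r* lay in a much narrower band, with 10.51, 10.79 and 10.98 in *Rsk2-/Y* pools, against 10.67, 10.81 and 10.92 in WT pools. Neither gene separated the genotypes. The difference between *Rsk2-/Y* and WT (given throughout as *Rsk2-/Y* minus WT) was -0.027 for *Igf1* (95% confidence interval -0.39 to 0.33) and -0.0096 for *Igf1r* (-0.14 to 0.12), on the log2 scale. With the epithelium and muscle marker means as covariates, in a fit that also held the series, the *Igf1* difference was -0.31 (limma adjusted p = 0.998). With the series alone added it stayed at -0.027.

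Among the binding proteins, *Igfbp2* and *Igfbp6* had the largest differences relative to their error. *Igfbp2*, a binding protein abundant in embryonic epithelia, was at 9.51, 9.46, 9.28 and 9.45 in the AZN *Rsk2-/Y* pools, against 9.62, 9.43, 9.62 and 9.82 in the AZN WT pools. In the ABH series it was at 9.04, 9.11, 9.20 and 9.16 in *Rsk2-/Y* pools, against 9.39, 9.34, 9.07 and 9.45 in WT pools. In each series 1 WT pool (AZN_MolairesWT2 and ABH_13A) lay among the *Rsk2-/Y* pools and the other WT pools lay above them. Over all pools the means were 9.28 ± 0.18 in *Rsk2-/Y* and 9.47 ± 0.23 in WT (SD, n = 8 each), a difference of -0.19 (standard error 0.095, limma adjusted p = 0.9997). In this fit, which leaves the series out, the interval of -0.39 to 0.0093 includes 0. The difference was -0.20 in AZN and -0.18 in ABH pools, and 7 of 8 *Rsk2-/Y* pools lay below the WT mean. A two-sided exact permutation test of this value alone gave p = 0.0817 over all arrangements of the pools and p = 0.0114 over those that keep the series. With the series as a block in the fit the standard error was 0.062, the interval -0.32 to -0.061 and the unadjusted p 0.00638, and the adjusted p of 0.515 in limma missed the threshold.

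*Igfbp6*, which prefers IGF2 over IGF1, had signals between 5.65 and 6.01 in *Rsk2-/Y* pools, against 5.77 to 6.23 in WT pools. These values lie close to the signal minimum. Its difference was -0.14 (-0.29 to 0.0084, exact permutation p = 0.0696, and 0.0380 within series), with 6 of 8 *Rsk2-/Y* pools below the WT mean. It was -0.11 in AZN and -0.17 in ABH pools. With the series as a block the interval was -0.27 to -0.013, with an unadjusted p of 0.0321 and an adjusted p of 0.672 in limma.

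*Igfbp5*, the conserved relative that binds to the extracellular matrix, had ranges that lay apart between the genotypes in the AZN series. AZN *Rsk2-/Y* pools were at 12.15, 12.09, 12.05 and 12.11, against 12.27, 12.18, 12.22 and 12.29 in AZN WT pools. These ranges did not overlap, which held for 1 of the 8 genes and for 1.57% of all probe sets tested, while among ABH pools it held for 0 of 8 genes and for 8.59% of probe sets. ABH *Rsk2-/Y* pools were at 12.03, 12.07, 12.09 and 12.21, against 12.01, 12.12, 12.07 and 12.15 in ABH WT pools, and these overlapped. The difference was -0.14 in AZN pools (limma adjusted p = 0.9996) and 0.011 in ABH pools, and -0.063 over all pools (-0.16 to 0.035). The test of whether *Igfbp5* differed between the series in its genotype difference gave an adjusted p of 0.795 in limma, with an interval of -0.31 to 0.015.

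The remaining binding proteins did not separate the genotypes over all pools either. *Igfbp4*, a binding protein cleaved by PAPP-A, had a difference of -0.085 (-0.23 to 0.059), and *Igfbp3*, the main IGF carrier of blood plasma, had one of -0.056 (-0.25 to 0.14). *Igfbp7* had one of -0.10, and its interval of -0.72 to 0.51 leaves a wide span.

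Taking the 8 genes as a group, 0 passed a false discovery rate under 0.1 with a fold change beyond 1.2 between *Rsk2-/Y* and WT, where 0% of 18834 probe sets passed. At an unadjusted p under 0.05 the count was also 0 of 8, where 1.18% of all probe sets were higher and 2.87% lower, and no gene of the 8 had *Rsk2-/Y* and WT pools apart (0.0159% of all probe sets). With the series as a block, 2 of 8 genes (*Igfbp2* and *Igfbp6*) were lower at an unadjusted p under 0.05 and 0 higher, where 4.87% of all probe sets were lower and 2.11% higher, and 0 of 8 were called. An equal-variance test for 2 groups likewise called 0. All 8 differences lay below 0, from -0.19 to -0.0096, with a median of -0.074 beside -0.015 over all probe sets tested; the sign of *Igf1r* turned, to 0.0055, when the arrays were centred on their medians. With 8 pools a side, the confidence intervals of *Igf1r*, *Igfbp3*, *Igfbp4* and *Igfbp5* lay within a fold change of 1.2 in either direction, and those of the other 4 genes reached past it on at least 1 side. The test of a genotype difference that changes with the series called 0 of 8 (0% of all probe sets), with adjusted p between 0.795 and 0.993.

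**Figure D1:**
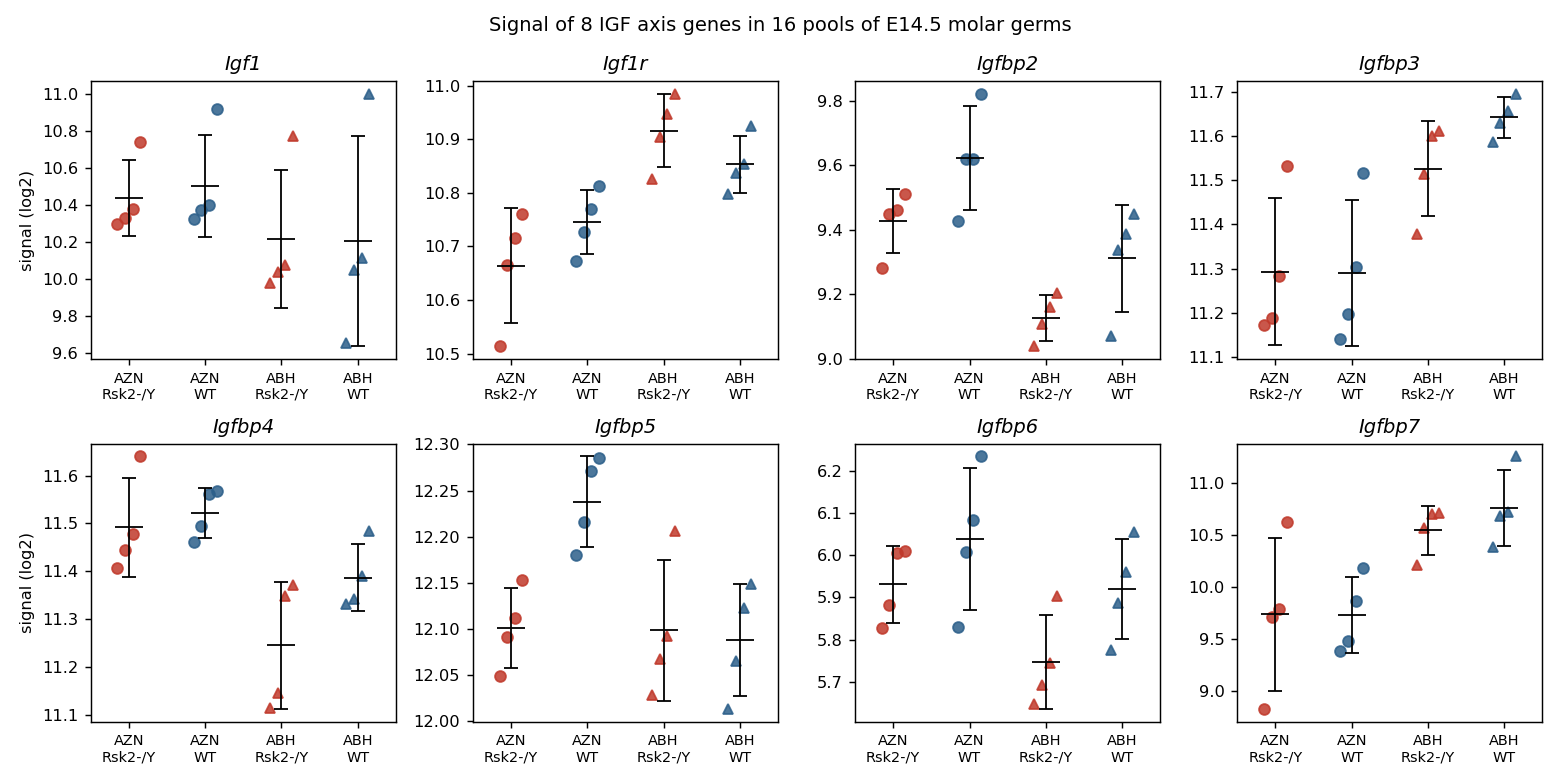
Log2 signal (y axis, scaled per gene) of each of the 8 genes in every pool, by series and genotype (x axis; circles AZN, triangles ABH; red *Rsk2-/Y*, blue WT), with the mean and SD of 4 pools as a bar. Red and blue points overlap for all genes over the 16 pools, and *Igfbp7* lies between 8.82 and 10.63 in AZN pools, against 10.21 to 11.26 in ABH pools.

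Some binding proteins differed between the series. AZN pools had more *Igfbp2* and less *Igfbp3* and *Igfbp7* than ABH pools, so that 3 of 8 genes passed the test (given throughout as AZN minus ABH, with the genotype in the fit), 1 of them higher and 2 lower. Over all probe sets 16.5% passed, 5.95% higher and 10.6% lower. With the arrays centred on their medians, the calls over all probe sets split into 1471 higher and 1644 lower, against 1120 and 1991 otherwise. For none of the 8 genes were the ranges of the AZN and the ABH pools apart, which was so for 8.95% of all probe sets. Whatever distinguishes the series is confounded with these differences and cannot be told apart from them.

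*Igfbp7* had the largest difference. Its signals were 10.63, 9.71, 8.82 and 9.79 in the AZN *Rsk2-/Y* pools, against 10.21, 10.71, 10.70 and 10.56 in the ABH *Rsk2-/Y* pools. In WT embryos they were 9.38, 9.48, 9.87 and 10.18 in AZN pools, against 10.68, 10.72, 10.38 and 11.26 in ABH pools. The WT pools of the series did not overlap, while 1 AZN *Rsk2-/Y* pool, the one without a number in its name, reached the ABH level. The difference was -0.92 (standard error 0.20, interval -1.34 to -0.51, limma adjusted p = 0.00159), a 1.89-fold lower signal in AZN pools, and all 8 AZN pools lay below the ABH mean. It was -0.81 among *Rsk2-/Y* pools (limma adjusted p = 0.0889) and -1.03 among WT pools (limma adjusted p = 0.00981). The dental mesenchyme mean moved with it, at 10.34 in AZN and 10.50 in ABH pools. Of its 14 markers 1 was called higher and 4 lower, where 5.95% of all probe sets were higher and 10.6% lower. The part of the mesenchyme in the *Igfbp7* result was not tested. With the epithelium and muscle means as covariates the difference was -0.76.

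*Igfbp3* also fell in AZN pools. It was at 11.28, 11.53, 11.19 and 11.17 in AZN *Rsk2-/Y* pools, against 11.51, 11.38, 11.61 and 11.60 in ABH *Rsk2-/Y* pools, and at 11.14, 11.30, 11.20 and 11.52 in AZN WT pools, against 11.70, 11.66, 11.59 and 11.63 in ABH WT pools. The ranges met in *Rsk2-/Y* and were apart in WT embryos. The difference was -0.29 (standard error 0.063, limma adjusted p = 0.00169, 1.22-fold). Among *Rsk2-/Y* pools alone it was -0.23 and missed the threshold (limma adjusted p = 0.106), while among WT pools it was -0.35 (limma adjusted p = 0.0195). That the 2 genotypes differ in this was not shown, since the test of the difference itself gave an adjusted p of 0.885 in limma.

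*Igfbp2* rose in AZN pools, with 9.52 ± 0.16 in AZN and 9.22 ± 0.15 in ABH pools (SD, n = 8 each). The difference was 0.31 (standard error 0.061, limma adjusted p = 0.00101, 1.24-fold) and all 8 AZN pools lay above the ABH mean. The *Rsk2-/Y* pools of the series did not overlap and differed by 0.30, and the WT pools overlapped and differed by 0.31. Without the unnumbered AZN pools, 1 of each genotype, the difference was 0.26 and fell below the fold minimum.

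The promoters of these 3 genes are shown because they are the members that moved between the series. RefSeq on GRCm38.p6 gave a window for all 8 genes, from 250 bases before to 50 bases after an annotated start. The *Igfbp2* and *Igfbp7* windows printed here lie at the outer start of their gene records, and that of *Igfbp3* lies at a start inside its record. The *Igfbp2* window is chr1:72824230-72824529 on the plus strand, that of *Igfbp3* is chr11:7213874-7214173 on the minus strand, and that of *Igfbp7* is chr5:77407996-77408295 on the minus strand. Capitals mark a GC box core, GGGCGG on either strand.
Igfbp2: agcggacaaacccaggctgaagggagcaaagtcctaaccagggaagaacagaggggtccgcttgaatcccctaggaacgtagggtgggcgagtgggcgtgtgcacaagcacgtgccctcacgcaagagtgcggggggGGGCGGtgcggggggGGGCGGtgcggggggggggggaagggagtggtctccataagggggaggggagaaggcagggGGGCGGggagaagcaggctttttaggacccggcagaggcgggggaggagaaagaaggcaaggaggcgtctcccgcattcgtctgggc
Igfbp3: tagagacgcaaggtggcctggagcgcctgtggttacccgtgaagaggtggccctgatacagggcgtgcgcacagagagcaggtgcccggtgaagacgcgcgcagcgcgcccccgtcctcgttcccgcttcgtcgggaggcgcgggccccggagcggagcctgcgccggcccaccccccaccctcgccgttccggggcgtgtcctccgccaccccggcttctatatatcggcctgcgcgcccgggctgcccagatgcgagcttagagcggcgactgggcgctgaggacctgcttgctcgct
Igfbp7: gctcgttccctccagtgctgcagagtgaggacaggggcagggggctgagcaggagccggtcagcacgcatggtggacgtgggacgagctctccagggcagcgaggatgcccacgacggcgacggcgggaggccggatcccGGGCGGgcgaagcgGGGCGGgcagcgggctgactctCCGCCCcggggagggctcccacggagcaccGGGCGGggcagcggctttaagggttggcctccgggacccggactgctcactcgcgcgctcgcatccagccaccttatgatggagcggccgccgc
The *Igfbp2* window shown held 3 such cores and the *Igfbp7* window 4, while these letters were not in the *Igfbp3* window. Of all 32851 windows of this length 35.7% held at least 1. The letters TATAAA, which 13.6% of all windows held on either strand, were in none of the 3. Other runs of T and A were not counted, and the printed *Igfbp3* window holds tatatat. The windows were rich in G and C, with 67.0% for *Igfbp2*, 71.7% for *Igfbp3* and 73.3% for *Igfbp7*, beside a median of 52.7% over all windows. *Igfbp2* has a further window in the table, at chr1:72825137-72825436 on the plus strand, which held 0 such cores and 57.3% G and C.

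The other members shifted by less than the fold minimum. Counting the false discovery rate alone, 6 of 8 genes passed, 3 higher and 3 lower, where 44.8% of all probe sets did (21.7% higher and 23.1% lower). *Igf1r* was then among the lower ones, with 10.70 ± 0.092 in AZN and 10.88 ± 0.066 in ABH pools (difference -0.18, limma adjusted p = 0.00548), and its *Rsk2-/Y* pools did not overlap between the series. *Igfbp4* was among the higher ones, with 11.51 ± 0.077 in AZN and 11.32 ± 0.12 in ABH pools (0.19, limma adjusted p = 0.00701), and again the *Rsk2-/Y* pools did not overlap. *Igfbp6* differed by 0.15 (limma adjusted p = 0.0556) and *Igfbp5* by 0.076 (limma adjusted p = 0.161). Ranges were apart for 3 of 8 genes among *Rsk2-/Y* pools (*Igf1r*, *Igfbp2* and *Igfbp4*), where 24.2% of all probe sets were, and for 3 of 8 among WT pools (*Igfbp3*, *Igfbp5* and *Igfbp7*), where 21.7% were.

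*Igf1* averaged 10.47 ± 0.23 in AZN and 10.21 ± 0.45 in ABH pools, and its difference of 0.26 (-0.079 to 0.60, limma adjusted p = 0.218) did not pass. This rested on single pools: without ABH_13A it was 0.38 (limma adjusted p = 0.0355), and without ABH_26A it was 0.35 (limma adjusted p = 0.0888). Both are ABH pools with a high signal.

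**Figure D2:**
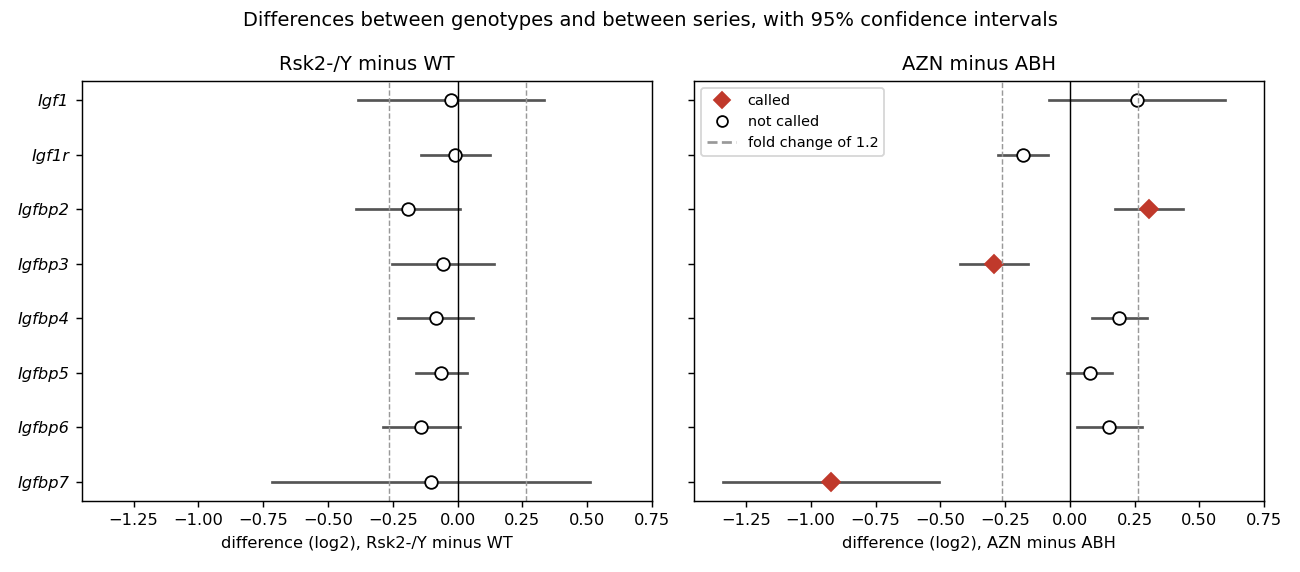
Log2 differences (x axis) of the 8 genes (y axis), *Rsk2-/Y* minus WT on the left and AZN minus ABH on the right, with 95% confidence intervals from limma; dashed lines mark a fold change of 1.2 and red diamonds the genes that passed the test. No gene is marked on the left, and *Igfbp2*, *Igfbp3* and *Igfbp7* are on the right.

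The genes differed widely in how much they varied among pools of one genotype and series. The SD pooled over these groups of 4 was 0.47 for *Igfbp7* and 0.38 for *Igf1*, larger than that of 98.9% and 98.1% of all probe sets tested. It was 0.13 for *Igfbp2*, *Igfbp3* and *Igfbp6*, near the median of 0.12 over all probe sets. *Igfbp4* had 0.095, *Igf1r* 0.075 and *Igfbp5* 0.059, and only 2.96% of all probe sets varied less than *Igfbp5*. Binding proteins thus stood at both ends of this range.

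*Igf1* was high in 4 pools, 1 of each genotype in each series. The signals were 10.77 in ABH_26A (*Rsk2-/Y*), 11.001 in ABH_13A (WT), 10.74 in AZN_MolairesMutant3 (*Rsk2-/Y*) and 10.92 in AZN_MolairesWT2 (WT). All others lay between 9.65 and 10.40. The genes whose pattern over pools was most like it were *Il1rapl2*, *Shisa3* and *Ebf3*, with mean correlations within the series of 0.95, 0.93 and 0.89 among 17215 genes (8 pools in each series). *Shisa3*, which encodes a membrane protein that holds back WNT and FGF receptors, was at 8.33 to 9.13 in those 4 pools and at 6.95 to 7.93 in the others. *Ebf3*, an EBF transcription factor, was at 9.01 to 9.50 and at 8.09 to 8.64. *Il1rapl2* stayed at or near background, between 4.13 and 5.04 in all pools. These genes were picked for this likeness, so that their levels in the 4 pools are a description.

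*Igfbp7* did not follow *Igf1*. Its lowest signal of all, 8.82, was in AZN_MolairesMutant3, 1 of the pools high in *Igf1*. In AZN_MolairesMutant it was 0.89 above the mean of its genotype and series. Within the AZN series *Igfbp7* followed the mean of 14 dental mesenchyme markers in exact rank order (Pearson's r = 0.973, Spearman's rho = 1, exact permutation p = 0.000124 and 4.96e-05, the smallest p that 8 pools can give for rho; adjusted over 96 relations 0.00595 and 0.00476). Without the 2 pools farthest from the median marker mean r was 0.952. Within the ABH series r was 0.588 and rho 0.357 (exact permutation p = 0.146, adjusted 0.536), and without the 2 farthest pools r was -0.755, so that the relation did not hold there. Whether the series differ in it was not tested. The unnumbered AZN pools, whose deviations correlated with each other at 0.684 over probe sets and which may thus not be independent, were the highest of the AZN pools in both measures, with *Igfbp7* at 10.63 in the *Rsk2-/Y* and 10.18 in the WT pool and mesenchyme means of 10.55 and 10.48. Over the other 6 AZN pools, an alternative chosen after seeing the data, r was 0.974 and rho 1 (exact permutation p = 0.00139 and 0.00278, adjusted over 48 relations 0.0333 and 0.0444). The AZN pools spanned a mesenchyme mean of 10.06 to 10.55 and the ABH pools one of 10.33 to 10.58. Most like *Igfbp7* were *Rin2*, *Fah* and *C1qtnf3*, with mean correlations of 0.91, 0.89 and 0.88.

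*Igfbp4* followed the endothelium markers in the AZN series. It correlated there with the mean of 11 such markers at r = 0.964 and rho = 0.976 (exact permutation p = 7.44e-05 and 0.000397, adjusted 0.00595 and 0.0190), and r was 0.969 without the 2 farthest pools. In the ABH series r was 0.653 and rho 0.643 (exact permutation p = 0.0821, adjusted 0.520), and 0.518 without the 2 farthest. Its most similar genes were *Fxyd7*, *Vwf* and *Sema3g*, at 0.92, 0.91 and 0.88. *Vwf* encodes the von Willebrand factor of endothelial cells and is itself 1 of the 11 markers. The endothelium mean ran from 8.82 to 9.35 in AZN and from 8.72 to 9.08 in ABH pools, and the unnumbered AZN pools were again highest of the AZN pools in both measures, with *Igfbp4* at 11.64 in the *Rsk2-/Y* and 11.57 in the WT pool and endothelium means of 9.35 and 9.13. Over the other 6 AZN pools r was 0.899 and rho 0.943 (exact permutation p = 0.00694 and 0.0167), and the adjusted p of 0.111 and 0.200 no longer passed 0.1.

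*Igfbp2* followed the epithelium and ran against the muscle markers in the AZN series, with an adjusted p under 0.1 for rho and not for r. With 16 dental epithelium markers r was 0.871 and rho 0.905 (exact permutation p = 0.00471 and 0.00456, adjusted 0.113 and 0.0876, r = 0.917 without the 2 farthest pools), and with 19 muscle markers r was -0.873 and rho -0.929 (adjusted 0.142 and 0.0536, exact permutation). Over the 6 numbered AZN pools r was 0.936 with the epithelium markers and -0.994 with the muscle markers (exact permutation, adjusted p 0.150 and 0.0333). In the ABH series the values of r were 0.655 and -0.196, with adjusted p of 0.520 and 0.874 by the exact permutation test. The genes most like *Igfbp2* were *Mgat5*, *Iqgap1* and *Hes1*, the NOTCH target, at 0.90, 0.90 and 0.89. The correlations with the marker means took both genotypes together. The epithelium and muscle means also differed between the genotypes, though their ranges overlapped and the means were not tested. In the AZN series *Igfbp2* was at 9.43 in *Rsk2-/Y* and 9.62 in WT pools. The values of r and rho can thus hold part of the genotype difference, and relations within a genotype were not tested. The part of the markers in the *Igfbp2* difference was not tested either. With the series and the epithelium and muscle means in the fit, the genotype difference of *Igfbp2* was -0.060, against -0.19 with the series alone. *Igfbp6* ran against the dental mesenchyme mean in the ABH series by rank, with rho = -0.929 (adjusted 0.0536) and r = -0.745 (adjusted 0.316, exact permutation), while in the AZN series r was 0.600. No other relation of the 8 genes with the means of 6 marker lists had an adjusted p under 0.1 in either series.

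The members showed little common movement. *Igfbp2* and *Igfbp5*, which are direct neighbours among the protein-coding genes of chromosome 1, correlated at 0.897 within AZN pools (rho 0.833, r = 0.794 without the 2 farthest pools). The exact permutation p was 0.00179, adjusted 0.1 over 56 tests, which are the pairs in both series. Over the 6 numbered AZN pools r was 0.877, with an adjusted p of 0.739 by exact permutation. Within ABH pools r was 0.214 (rho 0.333, adjusted 0.812 by the exact permutation test). *Igfbp2* and *Igfbp7* correlated at 0.820 in ABH (adjusted 0.118) and at 0.558 in AZN pools (adjusted 0.651, exact permutation). No other pair had an adjusted p under 0.2 by Pearson's r. Pairs were also correlated over both genotypes together. The *Igfbp5* ranges lay apart between the genotypes in AZN pools, so its r with *Igfbp2* there can hold part of that difference. Of the remaining members, *Igf1r* was most like *Sec24b* (0.88), *Igfbp3* most like *Gm14207* (0.83), *Igfbp5* most like *Bmf* (0.89) and *Igfbp6* most like *Il25* (0.88). *Gm14207* lay between 5.21 and 5.58 in all pools, close to the signal minimum, and *Il25* between 6.18 and 6.75. The similar genes of all members were picked for likeness among 17215 genes, so their correlations are a description.

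**Figure D3:**
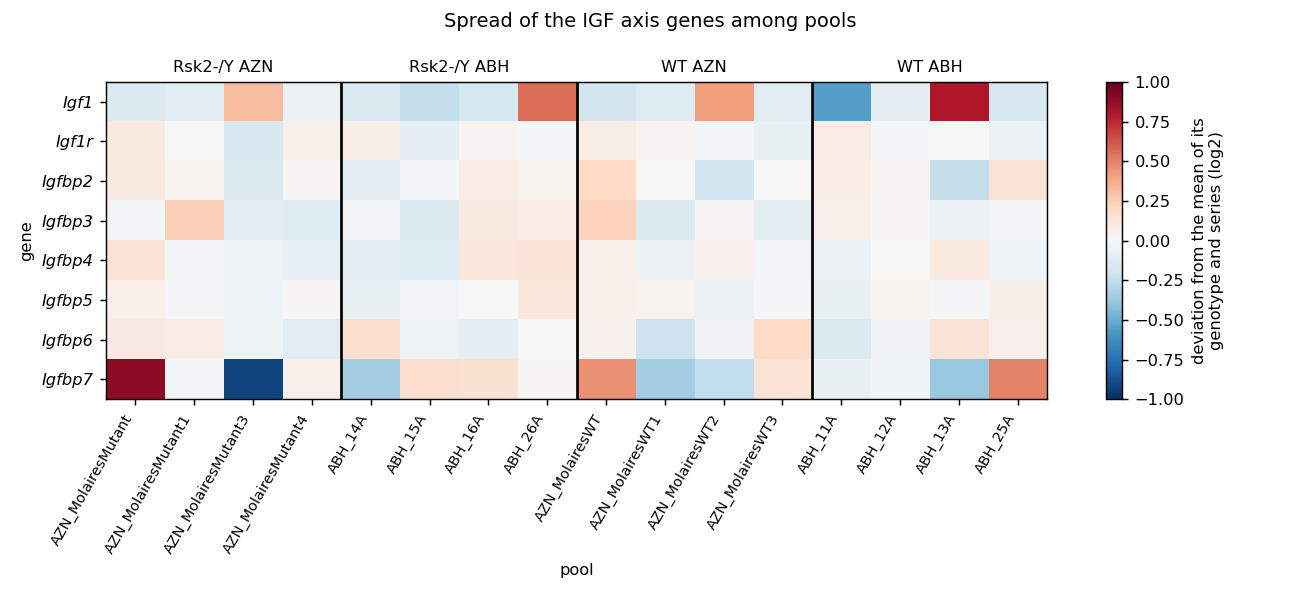
Deviation of each pool (x axis) from the mean of its genotype and series, in log2 units, for the 8 genes (y axis); red is above the mean and blue below. *Igf1* and *Igfbp7* have the strongest colours, with *Igfbp7* 0.89 above in AZN_MolairesMutant and 0.92 below in AZN_MolairesMutant3, and *Igfbp5* the palest.

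**Figure D4:**
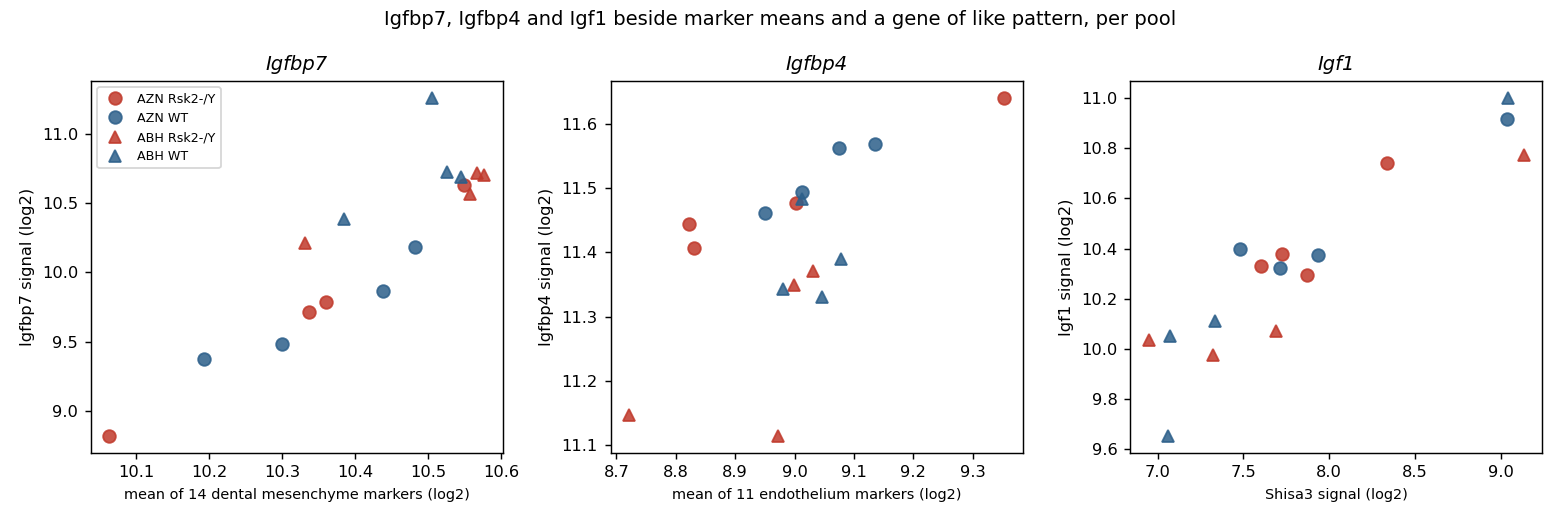
Log2 signals (y axes) of *Igfbp7*, *Igfbp4* and *Igf1* in each pool against the mean of 14 dental mesenchyme markers, the mean of 11 endothelium markers and the signal of *Shisa3* (x axes, log2; circles AZN, triangles ABH; red *Rsk2-/Y*, blue WT). The AZN circles of *Igfbp7* rise in order with the mesenchyme mean, and 4 pools high in *Igf1* are those with the highest *Shisa3*.

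The other ligands, receptors and binding proteins of the family, 8 measured of 9 listed, included 0 genes called between the genotypes and 0 between the series. Over all probe sets 0% were called between the genotypes and 16.5% between the series. *Igf2*, the fetal growth factor, lay between 13.07 and 13.19 in all pools, near the highest signal of any probe set (13.97), with a genotype difference of -0.0081 and a series difference of 0.020. *Igf2r*, the receptor that clears IGF2, differed by 0.014 between genotypes and by 0.00048 between series. *Igfbpl1*, an IGFBP-like protein, had the largest genotype difference of this list, with 6.04 ± 0.11 in *Rsk2-/Y* and 6.22 ± 0.15 in WT pools (SD, n = 8 each), a difference of -0.19 (limma adjusted p = 0.998). *Insr*, the insulin receptor, was at 0.065 between genotypes. Between series *Insr* was at 9.58 ± 0.088 in AZN and 9.81 ± 0.12 in ABH pools (-0.23, adjusted p = 0.00240 in limma). *Insrr*, the insulin receptor-related receptor, differed by 0.19 (limma adjusted p = 0.0350) and *Ins2* by 0.18 (limma adjusted p = 0.00452). Over all pools *Insrr* ran from 5.53 to 6.10 and *Ins2* from 5.70 to 6.14, close to the signal minimum. All of these series differences lay under the fold minimum. The false discovery rate alone was passed by 44.8% of all probe sets. *Insr* passed the fold minimum without the WT pool ABH_12A, at -0.26, and under another alternative, at -0.27.

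Of the proteases that cleave IGF binding proteins and their inhibitors, 13 of 13 were measured. Between the genotypes 0 were called, and the largest differences were 0.37 for *Timp1*, a metalloproteinase inhibitor, and 0.34 for *Pappa2*, the protease PAPP-A2. Between the series 4 of 13 rose in AZN pools and 0 fell, where 5.95% of all probe sets rose and 10.6% fell, with a median of 0.014 over the list beside 0.016 over all probe sets. *Pappa*, which encodes PAPP-A, was at 7.50 ± 0.24 in AZN and 6.996 ± 0.17 in ABH pools (0.51, limma adjusted p = 0.000551). *Timp1* differed by 0.49, *Htra1*, a secreted serine protease that cleaves IGFBP5, by 0.42, and *Mmp14*, a membrane metalloproteinase, by 0.41, with adjusted p of 0.00273 or less. The osteoblast markers rose in the same pools, with a mean of 10.20 to 11.42 in AZN and of 9.83 to 10.41 in ABH pools and 3 of 7 genes called, and their part was not tested.

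Downstream of the receptor, 26 of 29 genes of the IRS, PI3K, AKT and mTOR arm were measured, and 0 were called between genotypes. The largest genotype differences were -0.14 for the transcription factor gene *Foxo3* and -0.12 for *Irs2*. Between the series 1 rose in AZN pools (*Pik3r2*, a regulatory PI3K subunit, 0.29) and 3 fell, so that 4 of 26 were called, close to the 16.5% of all probe sets. Those that fell were *Rictor* of the mTORC2 complex (-0.46), *Gsk3b*, a kinase inhibited by AKT (-0.45), and *Pdpk1*, the kinase that activates both AKT and RSK (-0.36). Of the RAS and ERK arm 10 of 15 genes were measured, and 0 were called between genotypes, with *Grb2* at -0.12 and *Nras* at -0.092. Between the series 3 of 10 fell in AZN pools and 0 rose, where 10.6% of all probe sets fell: the exchange factor genes *Sos2* (-0.40) and *Sos1* (-0.34) and the RAF kinase gene *Braf* (-0.32). *Rps6ka3* itself was lower in AZN pools by 0.41 on the log2 scale (9.83 ± 0.16 in AZN and 10.24 ± 0.13 in ABH pools, adjusted p = 0.000205 in limma), without overlap of the pools. The binding proteins of *Igf2* mRNA did not pass in either comparison, with *Igf2bp3* at -0.030 and *Igf2bp1* at -0.023 between genotypes, and at -0.041 and 0.017 between series.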

How the data were processed

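Expression was deposited as log2 signals, 1 for each probe set. The authors made them from the arrays by RMA in Affymetrix Expression Console 1.3.1.187, according to the submitters' processing notes. They were not normalized further here, and the number of arrays limits the precision. Array medians ran from 6.74 to 6.94, and no samples were identical. Of 35556 probe sets, 21789 pair with 1 gene symbol, and the 18834 of these with a signal above 5 in at least 1 sample were tested.

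Genotypes come from the labels and series from the sample names. Linear models were fitted in limma 3.58.1 (R 4.3.3), with moderated two-sided tests and Benjamini-Hochberg adjustment over all probe sets tested. Genotypes were compared without covariate in the main fit, and with the series as a block in an alternative. Series were compared with the genotype as a term. A call needed a false discovery rate under 0.1 together with a change of more than 1.2-fold. Single values were tested by exact permutation over 12870 arrangements, or the 4900 that keep the series or genotype. Correlations were computed within series over all pairings of 8 pools (SciPy 1.17.1), with both genotypes together. The fits were checked on simulated data. For the genotype fit these data held no series difference. The check thus does not cover the spread that the series adds to the main genotype fit.

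Genes named are the 8 members, *Rps6ka3*, the 3 genes most like each member by the mean correlation within series, and, of each pathway list, up to 4 called genes or the 2 with the largest difference where none was called. *Igf2*, *Igf2r* and *Ins2* were added after values were seen. The members and lists were chosen with earlier results of these data known. Some genes of the pathway lists are not analysed here. Alternatives were other filters, centring, array weights, covariates, subsets of pools and leaving out each pool, and 4 were added after the data were seen. The fits with marker means as covariates held both genotype and series. Promoters are RefSeq windows on GRCm38.p6; the files name no build, so no other coordinates are given.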

Additional observations from a re-analysis of the deposited data

Results flagged for a closer look

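*Igf1* was at 10.77 in ABH_26A, far from the other 3 ABH *Rsk2-/Y* pools (9.98 to 10.07). It was at 10.92 in AZN_MolairesWT2, far from the other 3 AZN WT pools (10.32 to 10.40). Chance flags about 1 in 20 groups, and 2 of 64 groups of values of the 8 genes were flagged.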

How the results depend on the processing

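The count of 0 members between genotypes and of 0 for genotype by series stayed under all alternatives, and the count of 3 between series stayed within 2 and 4, except that it was 6 with no fold minimum, an alternative chosen after seeing the data. Over all probe sets, the genotype count of 0 became 10 without the WT pool AZN_MolairesWT2 (1 higher, 9 lower), 4 among ABH pools alone and 1 with the series as a block; the series count of 3111 became 2072 higher and 3191 lower with probe sets of any annotation, and 8432 with no fold minimum. The AZN numbers did not pair the samples (correlations of deviations -0.034 and -0.013), the unnumbered AZN pools deviated together (0.684), and with the replicate block 0 members were called, *Igfbp2* at an adjusted p of 0.518. Genotype differences that turned sign, none of them called, were 0.011 (*Igf1*), 0.063 (*Igf1r*), 0.011 (*Igfbp5*), 0.015 (*Igf2bp3*) and 0.061 (*Igf2bp1*) among ABH pools, 0.0037 (*Igfbp3*) and 0.0100 (*Igfbp7*) among AZN pools, 0.069 (*Igf1*) and 0.0014 (*Igf1r*) with array weights, 0.0055 (*Igf1r*) with median centring, 0.046 (*Igf1r*), 0.25 (*Igfbp7*), 0.089 (*Irs2*) and 0.094 (*Igf2bp3*) with the epithelium and muscle means as covariates, 0.0039 (*Igf1r*) and 0.11 (*Igfbp7*) without AZN_MolairesMutant3 and ABH_14A, and 0.016 (*Igf2bp1*) without the unnumbered AZN pools. With 1 pool left out they ran from -0.13 to 0.065 for *Igf1*, -0.037 to 0.030 for *Igf1r*, -0.23 to 0.087 for *Igfbp7* and -0.059 to 0.012 for *Igf2bp1*. Series differences that turned were 0.0041 among WT pools and 0.0047 with the covariates for *Igf2bp3*, and, for *Igf2bp1*, -0.068 among *Rsk2-/Y* pools, -0.015 with all probe sets of a gene averaged, -0.0058 without AZN_MolairesMutant3 and ABH_14A, and -0.021 to 0.056 with 1 pool left out. *Pik3r2* (0.23) and *Braf* (-0.23) fell below the fold minimum among WT pools. *Pik3r2* also fell just below it, at 0.26, under another alternative. The cause was not tested.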
